A study of Homo sapiens with 4 samples.

Results

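Kallikreins and other classical androgen target genes were followed in 22Rv1 cells, a human line derived from castration-resistant prostate cancer. The 10 genes were taken by symbol: KLK2, KLK3, KLK4, TMPRSS2, FKBP5, SLC45A3, STEAP1, STEAP2, PMEPA1 and C1orf116. Each matched 1 row of the deposited table of 63241 Ensembl genes, and all 10 were among the 14018 genes with a mean of at least 1 TPM over the libraries, the genes that were tested. TPM (the usual transcript abundance unit) is a share of the library corrected for transcript length, so levels of different genes can be compared. Poly(A)-selected RNA was sequenced after 12 h with 40 nM JMC45, which the submitters describe as a CDK9 degrader and also call D45, or with the DMSO vehicle, in 2 libraries per group. All cells grew in medium with fetal bovine serum, and no androgen or antiandrogen was part of the design. Separate cultures are not stated for the libraries, and each p-value therefore reflects the spread among 4 libraries that may be technical repeats.

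Androgens raise the transcription of their target genes through androgen response elements, stretches of DNA built as inverted repeats of the arm AGAACA. The target genes followed here are the usual readouts of androgen signalling in prostate cells, and several encode secreted or membrane proteins used as prostate markers. CDK9 is the kinase of P-TEFb, which releases paused RNA polymerase II into elongation. The comparison asked how transcripts of these genes differed after exposure to a compound directed at that kinase.

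The promoters of KLK3, KLK2 and C1orf116 are shown because KLK3 and KLK2 are related neighbours whose changes differed, KLK2 being called lower and KLK3 not, and because C1orf116 had the lowest change of the 10. Each line gives the 200 bases before the transcription start, 5′ to 3′, from RefSeq on GRCh38.p14. Capitals mark the androgen element of KLK3, its counterpart in KLK2, and the stretch of C1orf116 that shares 9 bases with the KLK2 element.
KLK3 (chr19:50854715-50854914, plus strand): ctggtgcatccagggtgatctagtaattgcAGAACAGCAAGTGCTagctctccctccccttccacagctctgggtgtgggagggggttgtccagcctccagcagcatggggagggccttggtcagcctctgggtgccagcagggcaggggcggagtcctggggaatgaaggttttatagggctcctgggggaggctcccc
KLK2 (chr19:50873239-50873438, plus strand): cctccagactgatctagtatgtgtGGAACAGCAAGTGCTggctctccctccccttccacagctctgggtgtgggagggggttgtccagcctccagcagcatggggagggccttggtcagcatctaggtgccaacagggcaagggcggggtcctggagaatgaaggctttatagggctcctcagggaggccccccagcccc
C1orf116 (chr1:207032757-207032956, minus strand): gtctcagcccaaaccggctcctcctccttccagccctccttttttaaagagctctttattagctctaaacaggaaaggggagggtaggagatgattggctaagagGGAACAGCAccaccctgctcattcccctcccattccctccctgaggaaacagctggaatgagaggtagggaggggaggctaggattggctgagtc

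The promoters of KLK3 and KLK2 were 85.4% identical over 206 aligned columns and shared an uninterrupted run of 80 bases. The 15-base element began 170 bases before the start of KLK3 and 176 bases before that of KLK2, and differed by A1G, with the KLK3 base given before the KLK2 base and positions counted from the element's first base. GAACAGCAAGTGCT, searched on both strands, was found in 2 of 35116 promoter windows of 250 bases before to 50 after a start, which were those of KLK3 and KLK2. GGAACAGCA, which lies within the marked KLK2 stretch, was in 0.402% of all windows and, among the 10 genes, in those of KLK2 and C1orf116. The full palindrome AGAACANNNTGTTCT was in none of the 15 windows matched to 9 of the genes (TMPRSS2 had no window) and in 1 of all windows. The arm AGAACA on either strand was in 4 of those 15 windows, belonging to KLK3, FKBP5 and PMEPA1, and in 14.8% of all windows. These matches describe the letters in the windows, and distant enhancers were not analysed here. The 14-base word was chosen as one shared by the KLK3 and KLK2 elements. The 9-base word was chosen as one shared by the KLK2 element and the C1orf116 promoter. Their presence in those genes therefore follows from the choice, and a link with the expression changes was not tested.

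Of the target genes, 9 of 10 fell in JMC45 on the TPM scale and KLK3 did not pass the test. The changes ran from -3.98 for C1orf116 to 0.31 for KLK3 on the log2(TPM + 1) scale, with a median of -0.91 against a median of -1.10 over all tested genes. The background is a general one: 80.7% of the tested genes were called lower and 4.25% higher at a limma adjusted p under 0.05, so the 9 decreases are close to the share in the whole table. The JMC45 and vehicle libraries did not overlap for any of the 10 genes, with JMC45 lower for 9 and higher for KLK3, where 85.7% of tested genes were lower without overlap and 6.28% higher. A log2 change of -1 or below was seen in 5 of the 10 genes and in 54.6% of tested genes. No gene of the 10 was called higher by limma, where 4.25% of tested genes were, and KLK3 did not pass (limma adjusted p = 0.0576). In bulk RNA, fewer cells of a type and less RNA per cell cannot be told apart, and no spike-in was analysed here. As a share of each library, TPM would not show a loss common to all transcripts.

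The direction of most of these changes depended on how the libraries were scaled. Size-factor scaling by the median of ratios, which sets the typical gene equal between libraries, called 2 of the genes lower and 5 higher, against 35.5% and 34.9% of all tested genes. Quantile normalization called 4 lower and 3 higher, against 32.8% and 33.6%. The median over the 10 genes was 0.42 and -0.23 under these scalings, where the median of all genes was -0.02 and 0.02. C1orf116 alone was called lower under both as well as on TPM. Ribosomal protein and mitochondrially encoded transcripts took larger shares of the JMC45 libraries: 86 ribosomal protein genes held 29.9% and 28.3% of TPM in JMC45 and 18.5% and 20.2% in vehicle, and the 37 mitochondrially encoded genes held 26.6% and 29.3% in JMC45 and 20.4% and 20.1% in vehicle. Their part in the results was not tested beyond the scalings given here. The change relative to the median of all tested genes is therefore given for each gene beside its change on TPM. That relative value also depends on the settings. With a pseudocount of 0.1 it was 0.13 for FKBP5 and -0.02 for STEAP1. Without the filter on low values the median of all genes was -0.30. Relative to it, KLK2 (-0.33), KLK4 (-0.38), TMPRSS2 (-0.30) and PMEPA1 (-0.43) lay below, whereas they lie above in the main setting.

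**Figure D1:**
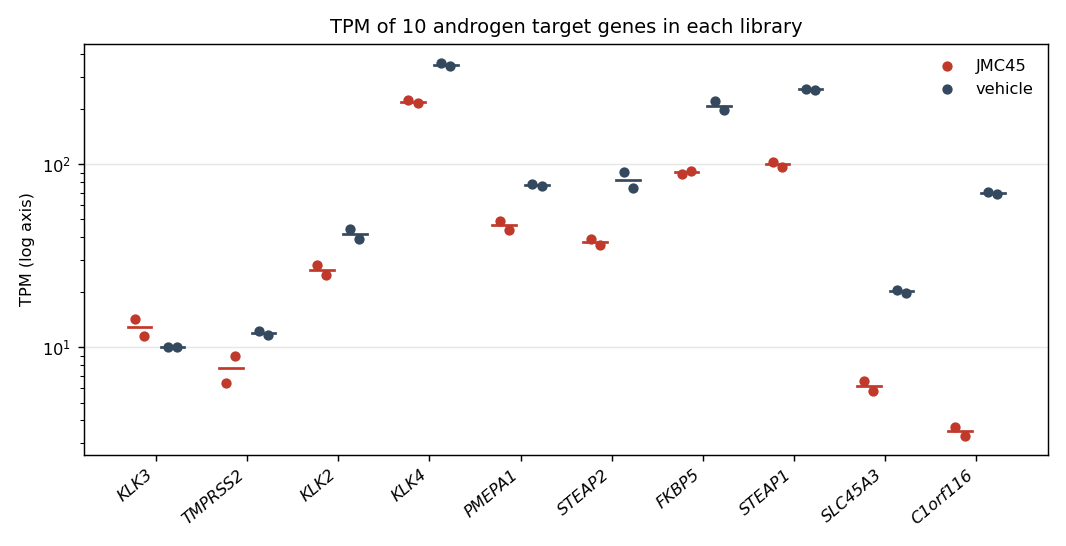
TPM (log axis) of the 10 genes in each library, with JMC45 left of vehicle. Points are libraries and lines are means. JMC45 points lie below vehicle points for every gene except KLK3, at 14.2 and 11.5 TPM in JMC45 against 10.09 in both vehicle libraries.

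Among the kallikreins, KLK2 and KLK4 fell by similar amounts and KLK3 did not pass the test. These genes encode secreted serine proteases of seminal fluid, clustered on chromosome 19. KLK3 encodes prostate-specific antigen, which liquefies the seminal clot and is the serum marker of prostate cancer. KLK3 was at 14.2 and 11.5 TPM in the JMC45 libraries and at 10.09 TPM in both vehicle libraries. The libraries of each group lay apart, but the 2 JMC45 libraries were farther from each other than the lower one was from vehicle. Its log2 change was 0.31 (SE 0.13, limma adjusted p = 0.0576), which is 1.41 above the median of all genes, higher than 95.7% of tested genes. It passed as higher with size factors (1.55) and quantile normalization (1.60), and without the mitochondrially encoded genes (0.46), and its value was -0.11 when the summed mitochondrially encoded TPM was set equal. With a library left out, its change was 0.17 without JMC45 replicate 1 and 0.46 without JMC45 replicate 2. The change was 0.31 without vehicle replicate 1 and also without vehicle replicate 2.

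KLK2 encodes a trypsin-like protease that can cleave the PSA precursor to its active form. It was at 28.2 and 24.9 TPM in JMC45 and at 44.4 and 38.9 TPM in vehicle, with both JMC45 libraries lower. The log2 change was -0.63 (SE 0.10, limma adjusted p = 0.00154), or 0.47 relative to the median of all genes, and it was called higher with size factors (0.68) and quantile normalization (0.42). KLK4, a protease also needed in enamel formation, was the most abundant of the 10 genes in every library. It measured 223.7 and 215.3 TPM in JMC45 and 358.3 and 341.5 TPM in vehicle, again with no overlap. Its log2 change of -0.67 (SE 0.06, limma adjusted p = 0.0001) was 0.43 above the median of all genes. It was called higher with size factors (0.68) and lower after quantile normalization (-0.29).

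Ratios of genes within a library are unaffected by any factor applied to the whole library, and were computed for 7 pairs chosen after the values were seen. KLK2 stood at 1.99 and 2.17 times the TPM of KLK3 in JMC45, against 4.4 and 3.85 times in vehicle. KLK4 stood at 15.7 and 18.8 times KLK3 in JMC45, against 35.5 and 33.8 times in vehicle. KLK3 thus took a larger part of the kallikrein transcripts in both JMC45 libraries. The ratio of KLK4 to KLK2 was 7.92 and 8.64 in JMC45 and 8.06 and 8.78 in vehicle, and there the groups overlapped. The shift of KLK2 against KLK3 was -0.99 on the log2 scale and that of KLK4 against KLK3 was -1.01, whereas KLK4 against KLK2 shifted by -0.02. A two-sided exact permutation test of 2 libraries against 2 cannot go below p = 0.33, and the ratios are given as values without another test.

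**Figure D2:**
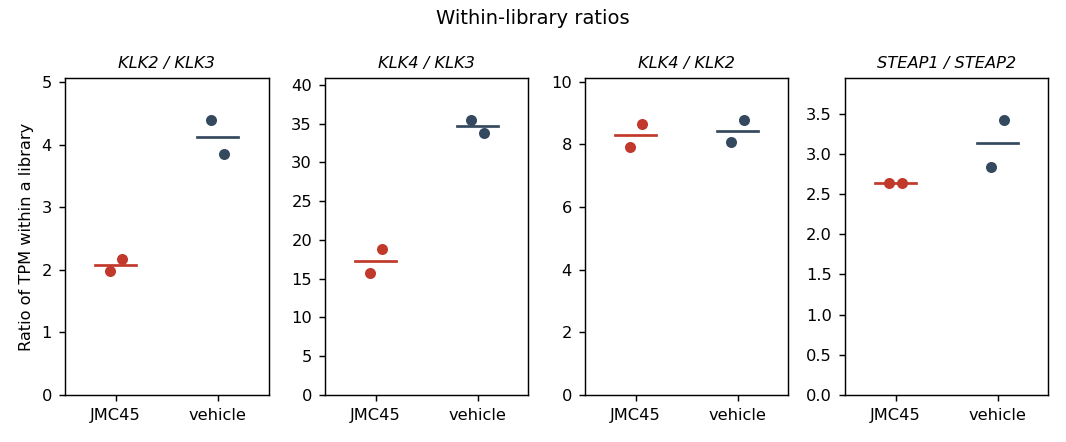
Ratios of TPM within each library for 4 pairs of genes, JMC45 left of vehicle, with each axis starting at 0. Points are libraries and lines are means. KLK2 and KLK4 are lower against KLK3 in both JMC45 libraries, the ratio of KLK4 to KLK2 overlaps between groups, and the ratio of STEAP1 to STEAP2 is 2.63 and 2.64 in JMC45 against 2.84 and 3.42 in vehicle.

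Other members of the kallikrein family, which were not among the 10 genes, were mostly near 0. Of 13 further genes with kallikrein names, 3 were tested, and the other 10 were at most 0.58 TPM in any library, 3 of them listed at 0 in all. KLK1, the tissue kallikrein that releases kinins, was at 11.8 and 10.6 TPM in JMC45 and at 46.95 and 51.2 TPM in vehicle. It fell by 2.03 on the log2 scale (SE 0.09, limma adjusted p = 1.35e-05) and by 0.74 with size factors. KLK15, low at 0.85 and 0.99 TPM in JMC45 and at 2.13 and 1.71 TPM in vehicle, fell by 0.60. With size factors its change of 0.17 was not called, and after quantile normalization it was called higher (0.44). KLK11 was at 5.61 and 6.10 TPM in JMC45 and at 5.38 and 6.49 TPM in vehicle, where the libraries overlapped and the change of -0.01 did not pass (limma adjusted p = 0.933), while with size factors it was called higher (1.14).

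TMPRSS2 and FKBP5 encode an enzyme at the cell surface and a chaperone partner. TMPRSS2 is a transmembrane serine protease whose androgen-driven promoter is fused to ERG in many prostate cancers. It was at 6.38 and 9.0 TPM in JMC45 and at 12.3 and 11.7 TPM in vehicle, both JMC45 libraries being lower but far apart from each other. The log2 change was -0.60 (SE 0.16, limma adjusted p = 0.0144), with a 95% interval of -1.0 to -0.19, and it lay 0.51 above the median of all genes. The call was kept without JMC45 replicate 2 (-0.81) and lost without JMC45 replicate 1 (-0.38, limma adjusted p = 0.0628), without vehicle replicate 1 (-0.56, adjusted p = 0.110) and without vehicle replicate 2 (-0.63, adjusted p = 0.0833). It was called higher with size factors (0.63) and quantile normalization (0.75).

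FKBP5 encodes FKBP51, an immunophilin that works with HSP90 in steroid receptor complexes and is induced by androgens and glucocorticoids. It was at 88.5 and 91.9 TPM in JMC45 and at 220.5 and 196.5 TPM in vehicle, so that no JMC45 library came near a vehicle one. The log2 change of -1.20 (SE 0.08, limma adjusted p = 3e-05) was 0.10 below the median of all genes. With size factors the value was 0.14 and not called, and after quantile normalization it was called lower (-0.75).

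STEAP1, STEAP2 and SLC45A3, which encode membrane proteins, all fell by more than a log2 unit. Among all tested genes, 54.6% had a log2 change of -1 or below. STEAP1 and STEAP2 are six-transmembrane epithelial antigens. STEAP2 is a metalloreductase that reduces iron and copper, and STEAP1 lacks the domain that binds NADPH. STEAP1 was at 103.4 and 95.9 TPM in JMC45 and at 256.5 and 254.9 TPM in vehicle. STEAP2 was at 39.3 and 36.4 TPM in JMC45 and at 90.3 and 74.5 TPM in vehicle. In neither gene did the groups overlap, and the vehicle libraries were closer together for STEAP1 than for STEAP2. The log2 changes were -1.35 (SE 0.06, limma adjusted p = 1.39e-05) for STEAP1 and -1.10 (SE 0.11, limma adjusted p = 0.000153) for STEAP2. They were 0.25 below and at the median of all genes. With size factors neither was called (-0.01 and 0.23). After quantile normalization STEAP1 was called lower (-0.90) and STEAP2 was not (-0.24). In the GENCODE 29 transcripts 21.4% of the 50-base words of STEAP1 also occur in its relative STEAP1B, so reads could be divided between them. STEAP1B was at 0.71 and 0.68 TPM in JMC45 and at 1.99 and 1.12 TPM in vehicle, far below STEAP1.

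SLC45A3, also called prostein, is a prostate-enriched solute carrier. It was at 6.58 and 5.80 TPM in JMC45 and at 20.5 and 19.9 TPM in vehicle, with narrow spread in both groups. The log2 change was -1.56 (SE 0.11, limma adjusted p = 3.74e-05), 0.46 below the median of all genes. It was called lower with size factors too (-0.33, limma adjusted p = 0.0293), but not after quantile normalization (-0.22, adjusted p = 0.0784).

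PMEPA1 encodes a membrane protein that binds NEDD4-type ubiquitin ligases and is induced by androgens and by TGF-beta. It was at 48.9 and 43.8 TPM in JMC45 and at 77.8 and 76.3 TPM in vehicle, with both JMC45 libraries lower. The log2 change of -0.72 (SE 0.08, limma adjusted p = 0.000233) lay 0.38 above the median of all genes. It was called higher with size factors (0.61) and not called after quantile normalization (0.11). The antisense gene NKILA overlaps PMEPA1 and was at 0.74 and 0.45 TPM in JMC45 and at 5.01 and 4.93 TPM in vehicle. The kit was stranded, but no source used here states whether quantification used strand, so reads of the 2 genes cannot be told apart with certainty.

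C1orf116, named specifically androgen-regulated gene for its induction in prostate cells, had the largest decrease of the 10 on every scaling run. It was at 3.68 and 3.29 TPM in JMC45 and at 70.1 and 69.1 TPM in vehicle, a 19.97-fold difference of the means. The libraries within each group were close together and the groups were far apart. The log2 change was -3.98 (SE 0.09, limma adjusted p = 9.2e-06), 2.88 below the median of all genes, and only 0.0642% of the tested genes had a lower value. It remained called lower with size factors (-2.76), after quantile normalization (-2.86) and when the summed mitochondrially encoded TPM was set equal (-4.38). Its ratio to KLK4 was 0.0165 and 0.0153 in JMC45, against 0.196 and 0.202 in vehicle.

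**Figure D3:**
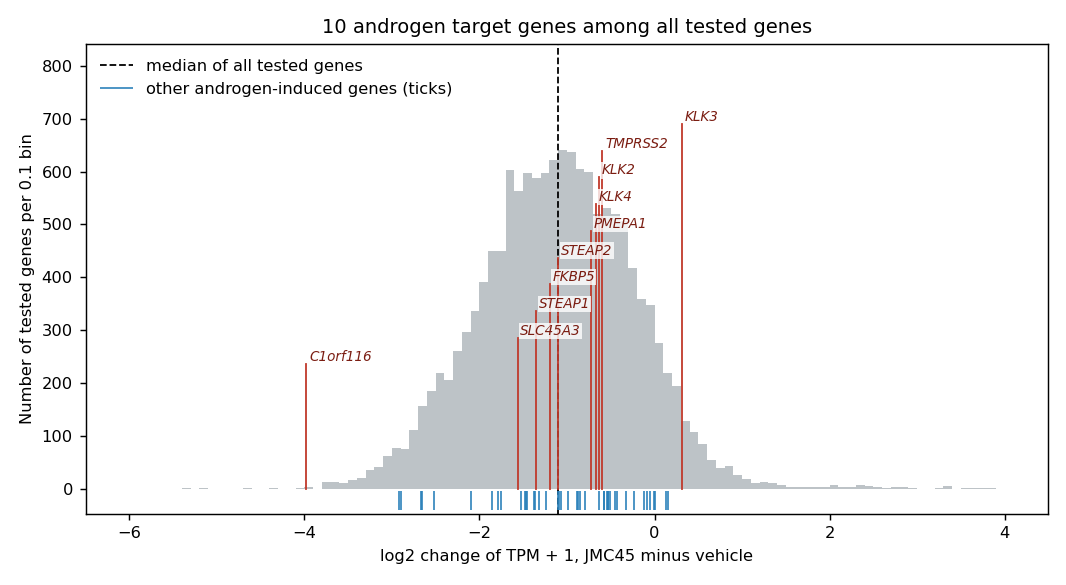
Number of tested genes per 0.1 step of log2 change (JMC45 minus vehicle, log2(TPM + 1)), with the 10 genes as labelled red lines whose heights only separate the labels. The dashed line is the median of all tested genes, -1.10, and blue ticks are the other androgen-induced genes. Apart from C1orf116 at -3.98 and KLK3 at 0.31, the genes lie between -1.56 and -0.60.

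The 10 genes differed widely in abundance, and their order changed for a few of them. Their summed level was 562.7 and 537.8 TPM in JMC45 and 1160.7 and 1093.2 TPM in vehicle. KLK4 made up 39.7% and 40.0% of that sum in JMC45 and 30.9% and 31.2% in vehicle. From high to low the order in JMC45 was KLK4, STEAP1, FKBP5, PMEPA1, STEAP2, KLK2 and KLK3, then TMPRSS2 and SLC45A3, whose libraries overlapped, and C1orf116. In vehicle it was KLK4, STEAP1 and FKBP5, then STEAP2 and PMEPA1, whose libraries overlapped, then C1orf116, KLK2, SLC45A3, TMPRSS2 and KLK3. C1orf116 thus held rank 10 in JMC45 and rank 6 in vehicle, and KLK3 rank 7 in JMC45 and rank 10 in vehicle.

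The genes lie on chromosome 19 (KLK2, KLK3 and KLK4), chromosome 1 (SLC45A3 and C1orf116), chromosome 7 (STEAP1 and STEAP2), chromosome 6 (FKBP5), chromosome 20 (PMEPA1) and chromosome 21 (TMPRSS2). Their changes were not ordered by gene size. The genes with long spans in GENCODE 29 were FKBP5 (155.0 kb), STEAP2 (70.5 kb), TMPRSS2 (66.6 kb) and PMEPA1 (63.1 kb), with changes from -1.20 to -0.60. The short ones were KLK4 (4.39 kb), KLK3 (5.85 kb), STEAP1 (10.5 kb) and C1orf116 (14.2 kb), with changes from -3.98 to 0.31. KLK2 and SLC45A3 span 19.0 and 22.6 kb.

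**Figure D4:**
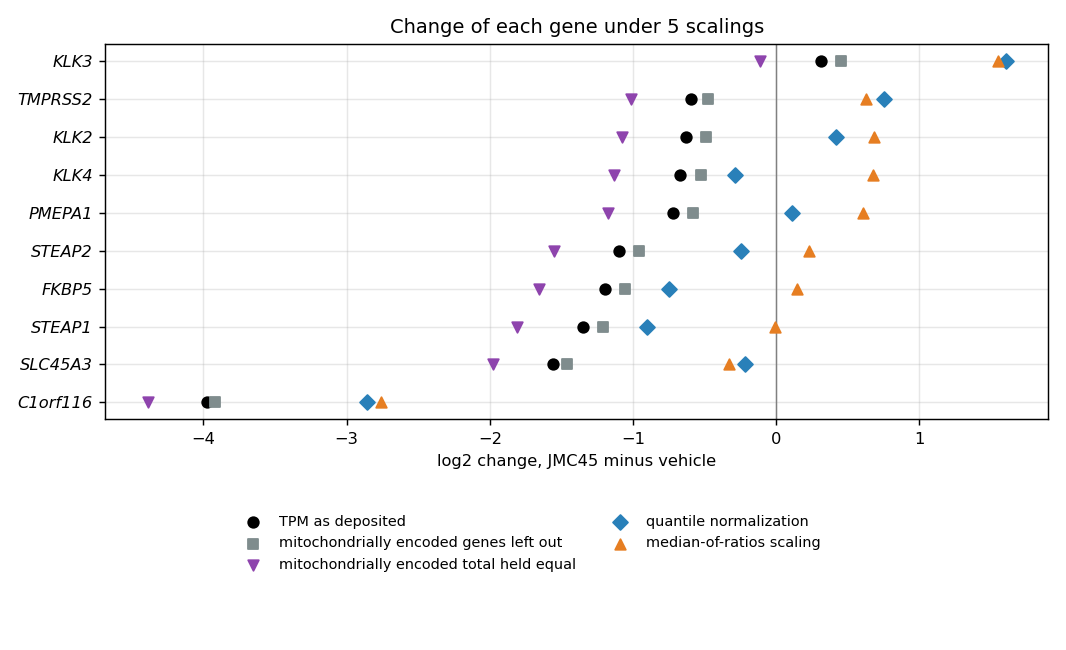
Log2 change (JMC45 minus vehicle) of each gene under 5 scalings, with 1 row per gene ordered by its change on TPM. C1orf116 lies below -2.7 under every scaling, KLK3 is above 0 under 4 of the 5, and KLK2, KLK4, TMPRSS2 and PMEPA1 lie below 0 on TPM and above 0 with size factors.

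Further androgen-induced genes lay on both sides of the general shift. Of 52 genes listed as androgen-induced in prostate cells apart from the 10, 43 were tested, 36 fell and 1 rose on TPM (against 80.7% and 4.25% of all tested genes), and their median was -0.88 against -1.10 over all tested genes. Size factors gave 13 lower and 20 higher (against 35.5% and 34.9% of all tested genes), and quantile normalization 11 lower and 17 higher (against 32.8% and 33.6%). SPDEF, an epithelial ETS factor, was at 3.45 and 2.84 TPM in JMC45 and at 29.4 and 31.2 TPM in vehicle (log2 change -2.92, limma adjusted p = 1.11e-05). PLPP1, a lipid phosphatase, fell by 2.67 and CREB3L4, a transcription factor of the endoplasmic reticulum membrane, fell by 2.66, and all 3 were also called lower with size factors.

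Transcription factors of the prostate epithelium were lower as well. The homeobox factor HOXB13 was at 10.8 and 9.89 TPM in JMC45 and at 94.95 and 96.6 TPM in vehicle (log2 change -3.10, SE 0.08, limma adjusted p = 9.2e-06). GATA2 (-2.14) and the pioneer factor FOXA1 (-2.03) also fell, and with size factors all 3 were called lower, at -1.80 for HOXB13, -0.82 for GATA2 and -0.70 for FOXA1.

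The libraries carried the markers of a luminal epithelial line. The 10 luminal markers summed to 717.5 and 701.9 TPM in JMC45 and to 1335.4 and 1349.1 TPM in vehicle, and 9 of the 10 fell on TPM, where 80.7% of all tested genes did. With size factors 5 of these markers were lower and 4 higher, against 35.5% and 34.9% of all tested genes. Quantile normalization gave 6 lower and 2 higher, against 32.8% and 33.6%. Leukocyte markers summed to 2.08 and 1.88 TPM in JMC45 and to 2.21 and 2.59 TPM in vehicle, and no endothelial marker was above 0.01 TPM. The basal keratin KRT5 and the neuroendocrine factor INSM1 were listed at 0 in all libraries, but some other neuroendocrine markers were expressed. ENO2 was at 77.4 and 76.05 TPM in JMC45 and at 68.0 TPM in both vehicle libraries. SRRM4 was at 29.2 and 30.3 TPM in JMC45 and at 26.15 and 23.1 TPM in vehicle. Basal markers summed to 2.58 and 2.39 TPM in JMC45 and to 17.5 and 16.7 TPM in vehicle, most of it SNAI2, which fell by 2.78 on the log2 scale. Fibroblast markers summed to 48.3 and 45.4 TPM in JMC45 and to 64.3 and 62.6 TPM in vehicle, most of it VIM. Neuroendocrine markers summed to 153.7 and 151.7 TPM in JMC45 and to 145.7 and 142.5 TPM in vehicle. Of 4 tested, ENO2 and SRRM4 were called higher, against 4.25% of all tested genes, and none was called lower. SYP (-0.18, limma adjusted p = 0.0661) and CHGB (-0.01, limma adjusted p = 0.916) did not pass. CHGA, too low to be tested, was at 0.34 and 0.48 TPM in JMC45 and at 0.83 and 1.18 TPM in vehicle. All 4 tested markers were called higher with size factors and after quantile normalization, against 34.9% and 33.6% of all tested genes. The part of these marker differences in the results above was not tested.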

How the data were processed

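Poly(A)-selected RNA of 22Rv1 cells was sequenced in 2 JMC45 and 2 vehicle libraries, with a stranded kit per the labels' protocols. The values deposited by the authors are TPM per Ensembl gene and library, per the file headers. Tools listed in the submitters' processing notes are fastp, HISAT2 and StringTie, with no version. No source used here gives the genome build or annotation. TPM keeps no depth, so depth is unknown and no counting intervals are given. Columns named as control were matched to vehicle by name and number, and 50 lines without values were left out.

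Genes averaging at least 1 TPM were tested as log2(TPM + 1), a scale that understates changes of low genes, using two-sided limma (version 3.58.1, R 4.3.3) with an intensity trend and without a replicate block. Benjamini-Hochberg adjustment ran over all 14018 tested genes, with a threshold of 0.05, and "rose", "fell" and "called" refer to it. The test was checked on simulated data. Summaries used Python 3.11.15. Promoters came from RefSeq and gene spans from GENCODE 29.

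The 10 genes and all gene lists were chosen with earlier results of these data known. From each list, up to 4 genes with the largest change past the threshold and a mean TPM of at least 5 were eligible for naming, and some genes of these lists are not reported here. Alternatives were a pseudocount of 0.1, no filter, a mean TPM of at least 5, 4 other scalings, no trend, a replicate block and each library left out.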

Additional observations from a re-analysis of the deposited data

How the results depend on the processing

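The 10 genes gave 130 comparisons with an alternative setting: 108 kept direction and side of the threshold, 7 lost the call, 5 gained one and 10 changed sign. Size-factor scaling (median of ratios) gave 2 of the 10 genes lower and 5 higher, and quantile normalization 4 lower and 3 higher, against 9 lower and 0 higher on TPM. The count higher was 1 (KLK3) without the mitochondrially encoded genes, and 0 to 1 when a library was left out. Signs changed with size factors for KLK2 (0.68), KLK4 (0.68), TMPRSS2 (0.63), PMEPA1 (0.61), STEAP2 (0.23) and FKBP5 (0.14), after quantile normalization for TMPRSS2 (0.75), KLK2 (0.42) and PMEPA1 (0.11), and with mitochondrially encoded TPM set equal for KLK3 (-0.11). Over all tested genes, 4981 were lower and 4888 higher with size factors, 4603 and 4716 after quantile normalization, and 181 were higher with mitochondrially encoded TPM set equal, against 11311 and 596 on TPM. Of the other androgen-induced genes, 13 were lower and 20 higher with size factors and 11 and 17 after quantile normalization, against 36 and 1 on TPM. The 1 higher became 0 with a pseudocount of 0.1, without the intensity trend, with the replicate block, with mitochondrially encoded TPM set equal and without any 1 library (0 to 0). Size factors and quantile normalization set the typical gene equal between libraries by construction, which moves the median of all genes from -1.10 to -0.02 and 0.02. TMPRSS2 was not called without the filter on low values (limma adjusted p = 0.0553). For the other changes of call or sign the cause was not tested.

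Equal replicate numbers were not stated to pair the libraries, and deviations of same-numbered libraries correlated at -0.05. With the replicate block, 9 of the 10 genes were lower and 1 was higher, KLK3 (limma adjusted p = 0.0473), and 11380 of all tested genes were lower and 613 higher. A library left out leaves 1 in its group, which is then assumed to vary like the other group.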

Other observations

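Relatives of the 10 genes outside the list differed from them in several cases. Of 17 listed relatives, 10 were tested, and 6 fell and 1 rose on TPM, against 80.7% and 4.25% of all tested genes. With size factors 0 were lower and 6 higher, against 35.5% and 34.9%. FKBP1A, the immunophilin FKBP12, was at 150.1 and 151.7 TPM in JMC45 and at 121.3 and 117.7 TPM in vehicle, and rose by 0.33 on the log2 scale (SE 0.06; limma adjusted p = 0.00197). FKBP4, which encodes FKBP52 and like FKBP51 partners HSP90, was at 107.5 TPM in both JMC45 libraries and at 157.5 and 166.4 TPM in vehicle, and fell by 0.59 (SE 0.06; limma adjusted p = 0.000198). FKBP2 fell by 0.32, and FKBP3 and FKBP8 did not pass (-0.09 and -0.01). With size factors all 5 were called higher, at 0.76 to 1.68, against 34.9% of all tested genes. After quantile normalization FKBP4 was not called (-0.09). FKBP1A, FKBP2, FKBP3 and FKBP8 were called higher there, against 33.6% of all tested genes. Among membrane serine proteases related to TMPRSS2, ST14 (matriptase) fell by 1.2 on the log2 scale, and its change with size factors, 0.03, was not called. HPN (hepsin) was at 9.25 and 7.71 TPM in JMC45 and at 7.10 and 5.37 TPM in vehicle, and its change of 0.40 did not pass (limma adjusted p = 0.0615). HPN was called higher with size factors (1.57) and after quantile normalization (1.70).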
